A study of Homo sapiens with 4 samples.

Results

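Peaks at transcript termination sites made up 210 of the 14149 peaks (1.48%) in a list of RNA regions recovered with the RNA-binding protein HuR from MDA-MB-231, an established human line of triple-negative breast cancer. They were chosen as the peaks whose annotation names the termination site of a RefSeq transcript, and the gene of that transcript is called the host. RNA was immunoprecipitated from the cells with a mouse antibody against HuR in 2 samples and with mouse IgG as the control in 2 samples, and the recovered RNA was sequenced without poly(A) selection. Each peak carries a single score pooled over the series and none for a HuR or IgG sample, so no replicate error could be computed and no difference between antibodies was tested. The score is the peak caller's own value and its scale was not stated.

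HuR, the product of ELAVL1, binds AU-rich and U-rich stretches, most often in the 3′ untranslated regions (UTRs) and introns of transcripts, and is known for stabilising the mRNAs it binds. A messenger RNA ends where the transcript is cut and polyadenylated, shortly after a hexamer that is usually AATAAA or ATTAAA. Neighbouring genes on opposite strands often end close together, tail to tail, so a region just past the end of a gene can lie in the 3′ UTR of the next. Peak annotation in HOMER calls a peak a termination site by default when its centre lies between 100 bp before and 1000 bp past a transcript end, and gives this label priority over exon, UTR and intron labels. The label therefore describes a position near an end and does not say from which gene the RNA came.

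The data showed that a large share of these peaks lay in the exons of a gene other than the host. The centre of the peak lay in an exon of another gene in 79 of 210 peaks (37.6%, 95% Wilson interval 31.3 to 44.3), in an exon of the host in 76 (36.2%, 29.99 to 42.9), and in exons of both in 8 of these. The remaining 63 centres (30%, 24.2 to 36.5) lay in no GENCODE exon. Hosts of 190 of the 210 peaks had a GENCODE gene, and the other hosts could not count as holding an exon. Any exon at the peaks of those hosts counted as another gene's, even where it may be the host under another name. Such peaks were kept here but left out of the other classes with hosts given below, so the classes were not filtered alike. The centre at SNORA104 lay inside that RNA but counts here as in no exon. The centre at SCARNA9L also lay inside its RNA but counts as in an exon of another gene. Intervals cover counting error only, and neighbouring peaks are not independent. Among peaks annotated in 3′ UTRs, 67 of 2058 centres (3.26%, 2.57 to 4.11) lay in an exon of another gene, a difference of 34.4 percentage points (95% Newcombe interval 28.0 to 41.1). The share was 5.54% of 1770 exonic peaks, 1.22% of 8667 intronic peaks, 9.52% of 168 peaks in 5′ UTRs and 12.2% of 469 peaks in non-coding exons. It was 27.1% of 442 promoter peaks. Intergenic peaks have no host, so any exon counted as another gene's there, in 49.1% (42.5 to 55.7) of 218. That share cannot be set beside the 37.6% at transcript ends, where 30% of centres lay in no GENCODE exon. Labels for UTRs and exons nearly require an exon of the host at the centre and the termination label overrides them, so the annotation rules themselves fix part of these differences.

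For 2 of the leading gene pairs, chosen because their ends lie close together, the sequences at both ends are shown. Each line gives 30 bases of hg38 around the polyadenylation hexamer nearest the annotated end, 5′ to 3′ on the strand of the gene, with the hexamer in capitals. GPS2, a corepressor subunit, lies on the minus strand at chr17:7312664-7312693, and EIF5A, a translation factor, on the plus strand at chr17:7312419-7312448. NME7 lies on the minus strand at chr1:169132536-169132565 and ATP1B1, the beta subunit of the sodium pump, on the plus strand at chr1:169132690-169132719.
GPS2: gtgtcccaggccAATAAAatctacctgcca
EIF5A: aaatcaaacctgAATAAAactacaagttta
NME7: tataaagttcaaAATAAAgatttattttca
ATP1B1: aaaacaacggacAATAAAagaatgaacaca

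The hexamer began 22 bases before the annotated end of GPS2 and of NME7, 32 before that of EIF5A and 17 before that of ATP1B1. The end of GPS2 nearest the higher-scoring peak and the end of EIF5A lay 195 bases apart. NME7 and ATP1B1 overlapped by 189 bases.

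Scores of the 210 peaks ran from 8.81 to 2624.6. Their median was 39.7, and the quartiles lay at 18.2 and 92.7. It was 34.0 over all 14149 peaks, 65.4 over 2062 peaks in 3′ UTRs, 28.6 over 8756 intronic peaks and 17.1 over 218 intergenic peaks, so peaks at transcript ends lay between the UTR and intronic classes. The 10 highest members held 44.2% of the summed score of the group, and the highest ranked 15 in the whole list. Of the scores under 100, 98.3% of 11121 were whole multiples of 0.245 within their printed decimals. If 1 such step is 1 read, which was not stated, the lowest member stood for 36 reads and the median member for 162 (95% Poisson interval of its score 33.8 to 46.2).

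**Figure D1:**
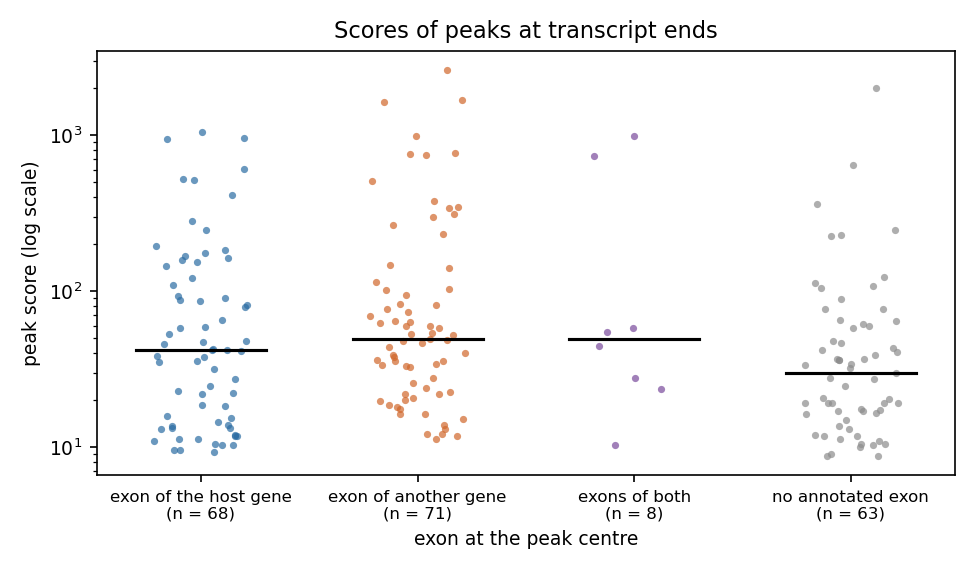
Score of each peak at a transcript end (log scale) by the exon at its centre, with a black line at the median of each class. Medians were 42.0 in exons of the host, 49.7 in exons of another gene, 49.5 in exons of both and 29.9 in no exon, and the classes overlapped over most of their range.

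The highest scores, at GPS2 and ST6GALNAC2, stood where a gene of the opposite strand adjoins or overlaps the end of the host. Next in the order came NAP1L1 (1056.7) in its own exon and SNORA100 (996.7) in an exon of a gene on its own strand. The peak at the end of GPS2 with the score of 2624.6, at chr17:7312068-7312414, had its centre in the 3′ UTR of EIF5A, 222 bp before the end of EIF5A. A second peak there, at chr17:7311648-7311994, scored 2018.4 and touched the same 3′ UTR at its 5′ edge. EIF5A held 2 further peaks elsewhere in the list with a best score of 1918.3, and GPS2 held 0.

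Peaks named for ST6GALNAC2, a sialyltransferase, scored 1682.4 and 1635.7. Both centres lay in exons of SNHG16, a non-coding snoRNA host gene on the opposite strand. The end of the canonical SNHG16 transcript lay 105609 bp from the end of ST6GALNAC2, so this pair was not counted as tail to tail. Ends of other SNHG16 transcripts were not compared. Neither gene held a peak of another annotation in the list.

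The peak named for NME7 scored 770.6 and its centre lay in the 3′ UTR of ATP1B1, which held 9 further peaks with a best score of 690.1. The peak named for MAP3K12, a kinase of the JNK pathway, scored 734.9 and its centre lay in the 3′ UTRs of both MAP3K12 and PCBP2, an RNA-binding protein that held 11 further peaks with a best score of 1047.4. NME7 and MAP3K12 held 0 further peaks.

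At REC114, a meiotic recombination protein, the peaks scored 380.5 and 313.5, and both centres lay in the 3′ UTR of NPTN, a cell adhesion glycoprotein, which held 7 further peaks. At PHKG1, a phosphorylase kinase subunit, they scored 344.8 and 340.6, in the 3′ UTR of SUMF2, which held 6. None of the hosts in these 2 cases held a further peak. Lower in the order, the peak named for IFT20 (267.5) lay in the 3′ UTR of TMEM97 and that named for KDELR3 (233.7) in the 3′ UTR of the RNA helicase DDX17, with 2 further peaks each in TMEM97 and DDX17 and 0 in both hosts.

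At SNHG29, a snoRNA host gene, the peaks scored 986.0 and 954.9, and both centres lay in its own exon. The centre of the peak of 986.0 also lay in the 3′ UTR of LRRC75A on the opposite strand. The peak of 954.9 touched that 3′ UTR at its 5′ edge. At TICAM2-AS1 the peaks scored 414.3 and 280.4 in its own exon and touched a coding exon of TMED7, a cargo receptor of the secretory pathway, at their 5′ edges. TMED7 held 6 further peaks and TICAM2-AS1 held 0.

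**Figure D2:**
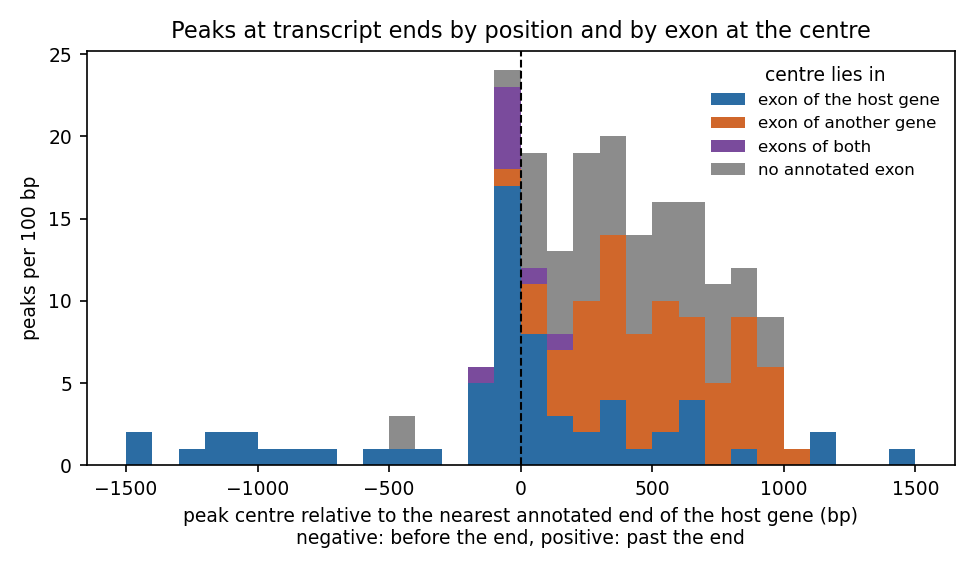
Peaks per 100 bp by the distance of the centre from the nearest annotated end of the host gene (negative before the end, positive past it), coloured by the exon at the centre. It shows 198 peaks; 7 lay more than 1500 bp away and 5 had no host position, and centres in the host's own exons gathered around the end while those in exons of other genes lay past it.

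Centres lay a median of 301 bp past the nearest annotated end of the host gene (quartiles 0 and 627 bp, n = 205), and 174 of 205 (84.9%) lay within the window of 100 bp before to 1000 bp past it. By default the label itself asks for this window at the end of the named transcript, so it largely sets these values. Distances here were taken to any annotated end of the host gene, which need not be the named one. The span of the host gene over all its isoforms still held 111 of the 210 centres, and 94 lay past its end. Of 205 peaks with a host strand, 116 (56.6%, 49.7 to 63.2) were listed on it.

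Another gene had an exon at the centre or at the 5′ edge of 101 of the 210 peaks. Where the host had no GENCODE gene, this may be the host under another name. When the host was not a small RNA, this gene lay on the opposite strand in 63 of 75 peaks (84.0%, 74.1 to 90.6), on the same strand in 7 and on an unknown one in 5. The 63 centres lay in the 3′ UTR of the opposite gene in 38 peaks, in its coding exons in 11, in its 5′ UTR in 1 and in non-coding exons in 3, and 10 were not exonic there. The end of the opposite gene was taken from its canonical transcript alone. In 47 of the 63 peaks, at 37 gene pairs, the ends of the genes lay within 5000 bp of each other, tail to tail. The genes overlapped in 31 pairs and lay apart in 6, with a median overlap of 439 bp among the 31, and 11 pairs ended within 100 bp of each other. In 46 of these 47 peaks the centre lay before the end of the neighbour, by a median of 738 bp. The peaks were chosen for an exon of that neighbour at the centre or 5′ edge, so this order was largely fixed by the choice.

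The other gene was usually represented elsewhere in the list and the host was not. Among the 101 peaks with another gene at the same place, that gene held a peak of another annotation in 74 (73.3%, 63.9 to 80.9) and the host in 21 (20.8%, 14.0 to 29.7). Only the other gene did so in 57 peaks, only the host in 4, both in 17 and neither in 23. Where several genes overlapped, the one with the most such peaks was taken; in the 95 peaks with a single candidate the counts were 71 and 21. For the 84 peaks in an exon of the host with no other gene there, the host held further peaks in 68 (81.0%, 71.3 to 87.9). The libraries were made with a kit that does not mark strand, so reads of the host and of a gene antisense to it cannot be told apart, and longer genes have more room for peaks; the part of gene length in these counts was not tested.

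**Figure D3:**
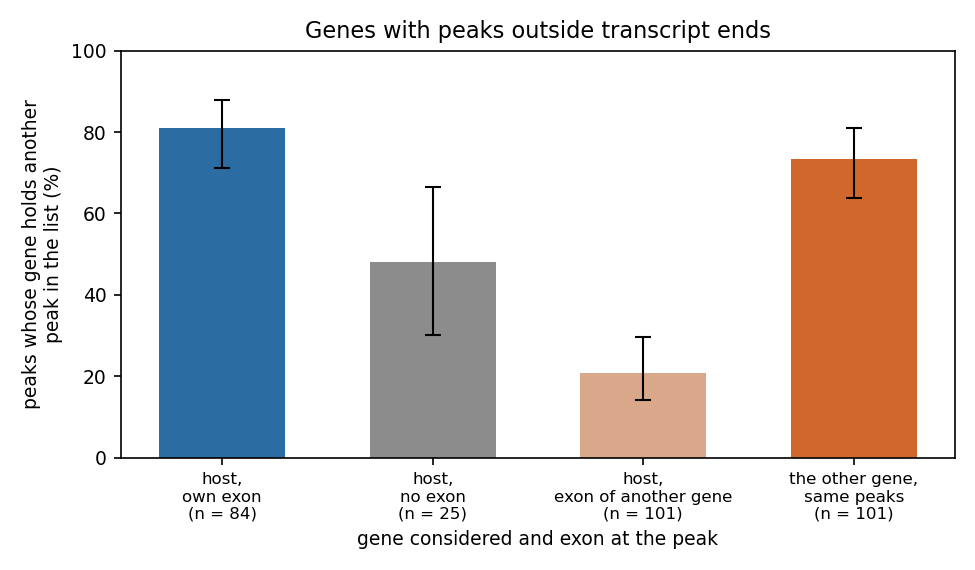
Share of peaks at transcript ends whose gene holds another peak in the list outside transcript ends, with 95% Wilson intervals. The host did so in 81.0% of 84 peaks in its own exons, in 48.0% of 25 peaks in no exon and in 20.8% of 101 peaks where another gene has an exon, while that other gene did so in 73.3% of the same 101 peaks.

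A further group of peaks lay in the host's own exons. Of the 76 centres in an exon of the host, 54 lay in its 3′ UTR, 9 in coding exons and 13 in exons of non-coding transcripts. NAP1L1, a histone chaperone, had peaks of 1056.7 and 946.8 near an end of its transcripts, at chr12:76047565-76047911 and chr12:76048289-76048635, and 9 further peaks with a best score of 1009.0. HNRNPL, a splicing regulator, had a peak of 610.1 in its 3′ UTR and 10 further peaks. TMED4, a cargo receptor, had peaks of 527.1 and 520.0 and no other peak in the list.

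The 3′ UTR ends of YTHDF2, a reader of methylated adenosine in mRNA (195.0), UBE2C, a ubiquitin-conjugating enzyme of mitosis (183.0), and TAF13, a general transcription factor subunit (248.1 and 144.9), were also listed. Each of these hosts held 2 or more further peaks. RSRC1, a splicing-related protein, had peaks of 158.1 and 152.9 and 15 further peaks.

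Several peaks stood at the ends of short isoforms inside the gene. Among 146 peaks with a protein-coding host, 99 centres lay within the span of the host gene over all its isoforms. In 70 of these 99 the host held further peaks. That span also takes in the final 3′ UTR and regions shared with other genes. The 99 include the GPS2 peak of 2624.6, centred in the 3′ UTR of EIF5A. They therefore do not measure internal ends, and peaks at internal ends were not counted separately. CD274, which encodes the immune checkpoint ligand PD-L1, had a peak of 41.1 at such an internal end and 6 further peaks with a best score of 54.1. The cochaperone FKBP5 had peaks of 76.6 and 65.6 at an internal end and 10 further peaks. ATF2, a transcription factor, had peaks of 64.8 and 59.2 and 22 further peaks, and MITF, another, had a peak of 61.2 and 16 further peaks.

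AU-rich pentamers stood in peaks of both kinds. The lines give 30 bases of hg38 with the ATTTA nearest the peak centre in capitals. Each is on the strand of the gene whose exon holds or touches the peak. They are NAP1L1 at chr12:76047741-76047770 (minus strand), ATP1B1 at chr1:169131572-169131601 (plus), NCL at chr2:231454933-231454962 (minus), ITGB1 at chr10:32900756-32900785 (minus), TMED4 at chr7:44579428-44579457 (minus) and EIF5A at chr17:7311911-7311940 (plus). The EIF5A line comes from the peak of 2018.4, which only touches an EIF5A exon at its 5′ edge. The peak of 2624.6, centred in the EIF5A 3′ UTR, held 0 copies of ATTTA on either strand.
NAP1L1: ctgtatttttaaATTTAacctccattaact
ATP1B1: ttcccactagccATTTAataagttaaaaaa
NCL: tgtaagttttgaATTTAtattgtttcatcc
ITGB1: cttttgagttgaATTTAttttattattttt
TMED4: cctttttacctcATTTAtttggtactttcc
EIF5A: tcctcctacacaATTTAtttgacgttttat

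The pentamer ATTTA is the core of AU-rich elements. On the host strand it stood in 112 of 205 peaks (54.6%, 47.8 to 61.3), against 52.6% of 2058 peaks in 3′ UTRs and 55.7% of 8667 intronic peaks. The difference from 3′ UTR peaks was 2.01 points with an interval of -5.16 to 9.02, and that from intronic peaks was -1.03 points (-7.94 to 5.72), so neither interval excluded 0. Exonic peaks held it less often, by 19.0 points (11.8 to 26.1). Peaks were 347 bases long in all classes compared. A match is only a match of letters and does not mark a bound site.

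AATAAA or ATTAAA stood on the host strand in 81 of 205 peaks (39.5%, 33.1 to 46.3) and in 36.4% of 3′ UTR peaks, a difference of 3.12 points (-3.66 to 10.2). AATAAA alone stood in 28.3% against 22.1%, a difference of 6.23 points (0.221 to 13.0). On either strand the share with AATAAA or ATTAAA was 62.4%, against 67.3% in 3′ UTR peaks, 68.8% in intronic and 55.0% in intergenic peaks.

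Runs of TTTTT, which stand for U-rich RNA, were less frequent in peaks in an exon of another gene than in peaks in the host's own exon. This motif was added after the other motif counts had been set out. On the host strand 54 of 68 peaks in the host's own exon held a run (79.4%, 68.4 to 87.3), against 28 of 66 in an exon of another gene (42.4%, 31.2 to 54.4) and 46 of 63 in no exon (73.0%, 61.0 to 82.4). Read on the strand of the other gene, 39 of 71 of those peaks held a run (54.9%, 43.4 to 66.0). Peaks in the host's own exon exceeded these by 37.0 points (20.7 to 50.7) on the host strand and by 24.5 points (8.87 to 38.5) when the latter were read on the strand of the other gene. Peaks in the host's own exon and in no exon differed by 6.40 points, with an interval of -8.11 to 20.8 that held 0. Over all members the share on the host strand was 65.4%, against 78.5% of 3′ UTR peaks, a difference of -13.2 points (-20.1 to -6.72).

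**Figure D4:**
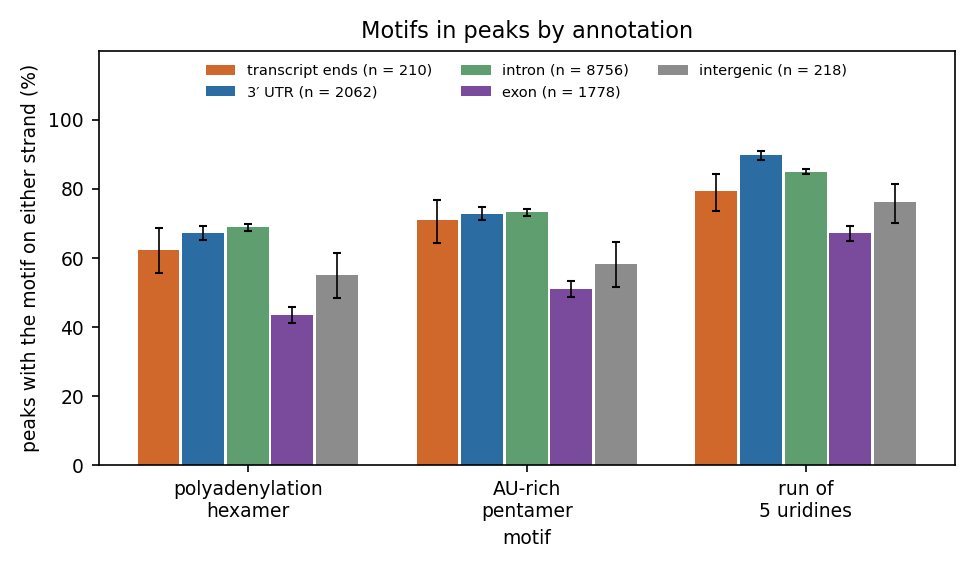
Share of peaks that hold each motif on either strand, by annotation, with 95% Wilson intervals; the polyadenylation hexamer is AATAAA or ATTAAA, the AU-rich pentamer is ATTTA and the run of uridines is TTTTT in DNA letters. Peaks at transcript ends reached 62.4%, 71.0% and 79.5%, near 3′ UTR peaks for the first 2 motifs and below their 89.8% for the third.

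Small RNA genes were the host of 29 peaks (13.8%, 9.79 to 19.1): 14 peaks at microRNAs, 7 at H/ACA snoRNAs, 2 at C/D snoRNAs, 4 at small Cajal body RNAs and 2 at a U5 spliceosomal RNA. H/ACA and C/D snoRNAs guide pseudouridylation and methylation of other RNAs, and most are processed from introns of larger genes. The median score was 76.8, and 24 of the 29 peaks scored at or above the median of the whole list. Among all members 121 of 210 (57.6%) did so. In 26 of the 29 peaks a second gene had an exon at the centre or the 5′ edge, on the same strand in 25. These 26 include the peak at SCARNA9L, whose centre lay inside its own RNA. The peak overlapped the small RNA itself in 7 of 29 and held all of it in 3.

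The snoRNA-named peaks lay largely in the mRNAs around them. The peak at SNORA100 (996.7) lay in the 3′ UTR of HNRNPU, a nuclear matrix and splicing protein with 4 further peaks, and overlapped 125 of the 131 bases of the snoRNA. The 3 peaks at SNORA86 (764.5, 512.4 and 299.0) lay in the 3′ UTR of ITGB1, the integrin beta-1 chain, which held 12 further peaks with a best score of 1875.7, and overlapped 0 bases of the snoRNA. The peak at SNORA75 (745.4) lay in the 3′ UTR of NCL, nucleolin, 881 bp past the snoRNA, and NCL held 0 further peaks.

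Peaks at SNORD92 (123.3) and SNORD53 (105.0) touched coding exons of WDR43, a ribosome assembly factor with 12 further peaks, and did not reach the snoRNAs. The peak at SNORA36C (40.9) touched a coding exon of AAK1. The peak at SCARNA7 (113.1) touched a non-coding exon of KPNA4, a nuclear import receptor with 12 further peaks, that at SCARNA6 (13.7) a coding exon of ATG16L1, an autophagy protein, and that at SCARNA23 (20.6) no exon. SCARNA9L (54.1) was overlapped over 175 of its 348 bases.

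Whole small RNAs lay inside the peaks at SNORA104, RNU5D-1 and MIR6869. SNORA104 lies on the plus strand at chr19:14622213-14622351 and its peak scored 362.9. At RNU5D-1, a U5 small nuclear RNA gene, the peak over the RNA scored 34.3 and the next, which did not overlap it, 43.1. The hg38 sequence of SNORA104 is given with its run of TTTTT in capitals.
SNORA104: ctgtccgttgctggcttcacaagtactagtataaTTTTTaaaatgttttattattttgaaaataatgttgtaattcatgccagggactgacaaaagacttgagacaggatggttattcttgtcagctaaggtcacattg

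The 14 microRNA-named peaks belonged to 11 genes, and 3 of the 14 overlapped the hairpin. RefSeq on GRCh38.p14 gave 15 mature sequences for 10 of the genes, and their 15 seeds, bases 2 to 8, were all different. The mature sequences of the 3 overlapped hairpins and of MIR30C1, the best known of the hosts, are given with the seed in capitals.
hsa-miR-6869-5p: gUGAGUAGuggcgcgcggcggc
hsa-miR-6869-3p: cGCCGCGCgcaucggcucagc
hsa-miR-765: uGGAGGAGaaggaaggugaug
hsa-miR-3916: aAGAGGAAgaaauggcugguucucag
hsa-miR-30c-5p: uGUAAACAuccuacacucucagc
hsa-miR-30c-1-3p: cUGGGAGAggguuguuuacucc

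The peak at MIR6869 (648.0) held all 62 bases of the hairpin and touched a coding exon of FKBP1A, an immunophilin with 3 further peaks. At MIR765 the peak of 39.2 covered 95 of 114 bases and lay in a coding exon of ARHGEF11, and a second peak of 37.7 lay in its 3′ UTR. At MIR3916 the peaks scored 76.8 and 73.4, and only the latter reached the hairpin, over 41 of 94 bases.

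The other microRNA-named peaks did not reach the hairpin. They lay in or touched exons of UHRF1 at MIR4747 (225.9), FSTL1 at MIR198 (102.0), OSBP at MIR3162 (88.6), NFYC at MIR30C1 (82.2 and 64.6), KIF18B at MIR6783 (40.1), FAM172A at MIR2277 (24.0), RBMS1 at MIR4785 (16.2) and RADX at MIR548AN (12.2). Every one of these 8 genes held at least 1 further peak. Further peaks ran from 1 in KIF18B and in FAM172A to 18 in UHRF1, a regulator of DNA methylation maintenance.

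The exon at a member depended on where along the peak it was read. At the 5′ edge of the peak on its listed strand, 94 peaks (44.8%) lay in an exon of the host, 98 (46.7%) in an exon of another gene and 26 (12.4%) in no exon. At the 3′ edge the counts were 66, 65 and 88. Of the 63 peaks with no exon at the centre, 38 had an exon at the 5′ edge and 4 at the 3′ edge.

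**Figure D5:**
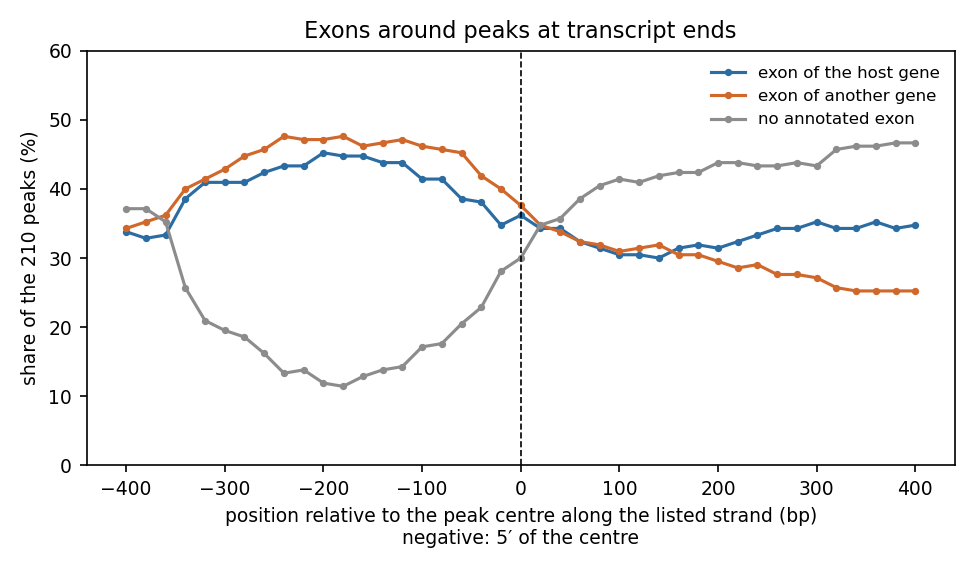
Share of the 210 peaks in an exon of the host, in an exon of another gene or in no exon at positions from 400 bp 5′ to 400 bp 3′ of the peak centre along the listed strand. The share in no exon was 30% at the centre and lowest 5′ of it, where 24 peaks were in no exon at 180 bp.

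Peaks of both strands also stood side by side. The 210 peaks formed 174 merged loci, and 90 peaks had a member of the other strand at the same transcript. In 45 such pairs the centre of the plus-strand peak lay to the right of that of the minus-strand peak in 43, by a median of 229 bp. The scores of the pair differed by less than 1 on the log2 scale in 44 of 45. The cause was not tested.

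The 25 peaks with no exon at the centre or the 5′ edge had a median score of 19.3, and 8 of them reached the median of the whole list. Their highest was the peak at PLAC8 (247.2), 928 bp past the end of the gene, whose host held 2 further peaks with a best score of 69.3. HASPIN (77.3), TAF1B (58.0) and MYEF2 (47.7) followed, with 3, 3 and 4 further peaks in the host.

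Genes that the study discusses were not found among hosts or overlapping genes. For the 14 genes FOXQ1, ELAVL1, LAMA4, CD82, CTNNB1, XIAP, BCL2, MSI2, MSI1, PLAUR, MMP9, SNAI1, CDH2 and CDH1, 0 members were counted. The same held for a list of 26 mRNAs with known AU-rich elements, such as MYC, FOS, VEGFA and PTGS2, and for replication-dependent histone genes, whose mRNAs lack poly(A) tails. Genes of the list of snoRNA hosts accounted for 8 peaks at 7 loci, in KPNA4, NCL, SNHG16, SNHG29 and WDR43. Peaks at transcript ends are only 1.48% of the whole list, and the peaks of these genes under other annotations are not given here. The counts therefore do not show that such genes avoid or favour transcript ends.

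The gene column of the list, which names the gene with the nearest transcription start, differed from the host in 109 of 210 peaks (51.9%, 45.2 to 58.6). It named the overlapping gene in 28 of the 101 peaks that had one.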

How the data were processed

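HuR RIP-seq and IgG RIP-seq samples were grouped by antibody. The authors mapped reads to hg38 with STAR and called peaks with HOMER; versions and settings are not given in the sources used here. The methods name ANNOVAR for annotation, whereas the file header holds a HOMER command with RefSeq transcripts. The deposited score and the focus ratio, a fraction per the file headers, are 1 value per peak for the whole series. Depth per sample is therefore unknown and no sample could be compared. The authors compiled peaks with altered transcript abundance, and whether the list holds only these is not stated.

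Hosts were matched through RefSeq (207 of 210 peaks) and GENCODE 44 (190), and exons were taken from all GENCODE transcripts; read-through transcripts were left out of gene ends. For 5 peaks no host position or strand was available. A peak was read at its centre, and at its 5′ edge on the listed strand. All peaks ended within the hg38 chromosome lengths. Motifs were searched in the 347 listed bases. The hexamers, ATTTA and runs of T can share letters. Some sequences are not reported here. Shares carry Wilson 95% intervals, and their differences Newcombe intervals. Software was Python 3.11.15, pandas 2.3.3, scipy 1.17.1 and pysam 0.24.0, and the exon lookup was tested on simulated positions.

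Named peaks were the 20 merged loci of highest score, all small RNA and histone hosts, and genes the study discusses; others were chosen after their values were seen. Members and lists were chosen with earlier results of these data known. Alternatives were a score minimum at the median of the list, 1 peak per locus, protein-coding hosts only, the 5′ edge, and overlap of a majority of the peak; 2 transcript sets were added after seeing the data.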

Additional observations from a re-analysis of the deposited data

How the results depend on the processing

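Of 41 alternatives to 12 results, 30 stayed within the 95% interval of the main value, or within 1.5 times it for a count. With only peaks at or above the median score of the list, 121 peaks at 101 loci remained, with a median score of 79.3, a share of 24.0% in no exon and 19.8% at small RNA hosts. At the 5′ edge, 46.7% of peaks lay in an exon of another gene, 44.8% in an exon of the host and 12.4% in none. With canonical transcripts alone, a choice added after seeing the data, 28.1% lay in an exon of the host and 41.4% in none. Among protein-coding hosts, 47.9% held a polyadenylation hexamer on the host strand. No paired analysis was possible because peak scores were pooled over samples, and leaving out a replicate was not run for the same reason. The list gives no enrichment over IgG.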

Other observations

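Antisense transcripts formed a group of their own among the hosts. Genes named as antisense RNAs were the host of 14 peaks at 11 genes, and 11 of these peaks lay in or touched an exon of another gene. That gene held further peaks in the list in all 11 cases. The peak at ZNF217-AS1 (141.9) was centred in a coding exon of ZNF217, a transcription factor amplified in breast cancer with 7 further peaks. SLC7A11-AS1 (107.9) touched a coding exon of SLC7A11, the cystine transporter with 1 further peak. At HCFC1-AS1 the peak of 103.3 was centred in a coding exon of HCFC1, a transcriptional coregulator with 3 further peaks, and touched its 5′ UTR. The peak of 94.9 was centred in that 5′ UTR. MYCBP2-AS1 (17.6), MDN1-AS1 (17.6) and EIF2AK3-AS1 (11.7) touched coding exons of MYCBP2, MDN1 and EIF2AK3, with 16, 6 and 6 further peaks.

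Transcribed pseudogenes were the host of 7 peaks at 4 genes, with scores from 11.0 to 42.1 and a median of 19.3.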
